A study of Mus musculus with 12 samples.

Results

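The genes described here are 38 mouse genes of the endoplasmic reticulum (ER): chaperones and folding enzymes, the machinery that removes misfolded proteins, the sensors and transcription factors of the unfolded protein response, and the Sec61 channel. They were chosen by symbol. All 38 were found among the 55536 gene IDs of each count table, each under a single Ensembl ID, and all 38 had enough counts to be tested in total RNA, in ribosome footprints and in the ratio of both. By role they comprise 12 members of the HSP70 system and other lumenal chaperones, 2 lectin chaperones, 8 disulfide and prolyl isomerases (these 3 groups make 22 folding genes), 9 degradation genes, 4 sensors and factors, and 3 translocon genes.

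The cells were mouse embryonic fibroblasts (MEF), connective tissue cells cultured from embryos. They were kept for 6 h in high-glucose DMEM with dialyzed serum and antibiotics, either without further addition (control) or with 100 nM halofuginone (HF), a small molecule that is known to inhibit the charging of prolyl-tRNA by the enzyme EPRS and thereby to activate the kinase GCN2. Total RNA and ribosome footprints (RPF, the fragments that a translating ribosome protects from nuclease) were sequenced for each condition, with 3 libraries in each of the 4 groups. Both conditions share the dialyzed serum, so the effect of that serum was not measured. The labels give no genotype, mouse strain, passage or clone of the cells and do not say that the libraries came from separate cultures. The spread that the p-values rest on is therefore that between libraries, and it may be purely technical.

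Proteins that are secreted or sit in membranes enter the ER through the Sec61 channel and are folded there by BiP (Hspa5) and its partners, by the lectin chaperones calnexin and calreticulin, and by protein disulfide isomerases. Proteins that fail to fold are passed back to the cytosol and degraded by the proteasome, a route called ER-associated degradation (ERAD). When unfolded proteins accumulate, the membrane sensors IRE1 (Ern1), ATF6 and PERK start the unfolded protein response, in which the factors XBP1 and cleaved ATF6 bind ER stress elements in the promoters of chaperone and ERAD genes. PERK and GCN2 phosphorylate the same initiation factor, eIF2, which lowers general translation and raises translation of the factor ATF4.

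Library totals ran from 718096 to 1697554 counts in total RNA and from 562794 to 2527791 in footprints. The 38 genes took between 0.637% and 0.765% of the counts of a total RNA library and between 1.29% and 1.58% of those of a footprint library. The locus Gm42418, which overlaps ribosomal RNA, took 11.8% to 13.7% of control and 7.35% to 9.48% of HF total RNA, and 1.12% of the footprint library control 1 against 0.0634% to 0.100% in the other 5. All 9 fibroblast markers had counts, with a summed level of 7790.2 to 8155 CPM (counts scaled to a common library total) in control and 9365 to 9684 CPM in HF total RNA. In footprints that sum was 15957 to 16924 CPM in control and 12379 to 12715 CPM in HF. Of the markers of other cell types, the 5 epithelial and the 5 pluripotency genes had 0 counts in total RNA. The 5 endothelial markers summed to 0 to 1.61 CPM in control and 6.16 to 15.7 CPM in HF total RNA, with Pecam1 and Tek at 0 in every library. Muscle markers summed to 9.82 to 24.2 CPM in total RNA, all of it Tnnt2 with Des, Myod1, Myog and Actc1 at 0. Leukocyte markers reached at most 5.89 CPM and neural markers at most 2.1 CPM in total RNA. The part that other cells, or the changed Gm42418 share, had in the results was not tested.

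The promoters of these genes are shown first, because the unfolded protein response is known to act through short elements in them. RefSeq promoter windows on GRCm38.p6, from 250 bases before to 50 bases after the start of transcription, were at hand for 32 of the 38 genes. They were searched on both strands for the ER stress element ERSE, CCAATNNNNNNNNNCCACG. This string was present in 39 of 32851 promoters of all genes (0.119%, a share of promoters), which belonged to 37 genes. Counted by gene, 8 of the 32 members held it (25.0%): Hspa5, Hsp90b1, Dnajc3, Creld2, Calr, Canx, Pdia6 and Syvn1. Each match is printed in the direction in which the motif reads, 5′ to 3′, with 6 flanking bases on each side in lower case and the match in capitals. Hsp90b1 held 2 matches.
Hspa5: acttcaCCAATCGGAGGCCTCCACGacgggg
Hsp90b1, first match: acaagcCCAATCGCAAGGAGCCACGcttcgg
Hsp90b1, other match: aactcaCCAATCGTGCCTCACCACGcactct
Dnajc3: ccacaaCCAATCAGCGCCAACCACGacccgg
Creld2: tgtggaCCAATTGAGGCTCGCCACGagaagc
Calr: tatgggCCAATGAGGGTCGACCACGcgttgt
Canx: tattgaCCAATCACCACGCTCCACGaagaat
Pdia6: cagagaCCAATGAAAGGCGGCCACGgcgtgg
Syvn1: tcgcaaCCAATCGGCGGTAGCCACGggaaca

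The capitals of these lines lie upstream of the start at chr2:34772025-34772043 (plus strand) for Hspa5, at chr10:86705638-86705656 (minus strand) and chr10:86705533-86705551 (plus strand) for Hsp90b1, and at chr14:118937827-118937845 (plus strand) for Dnajc3. They lie at chr15:88819520-88819538 (minus strand) for Creld2, chr8:84847075-84847093 (plus strand) for Calr, chr11:50325800-50325818 (minus strand) for Canx, chr12:17266491-17266509 (plus strand) for Pdia6 and chr19:6046532-6046550 (plus strand) for Syvn1. A match is a description of the letters, and its absence says only that these letters are not in the window.

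The second ER stress element, ERSE-II, ATTGGNCCACG, was present in 12 of 32851 promoters (0.0365%), among them those of Herpud1 and Dnajb11, where it lay past the start. The core of the element that ATF4 binds, TGATGNAA, was present in 1304 promoters (3.97%), among them those of Herpud1 and Txndc5. Counted by gene, these were 2 of the 32 members (6.25%). Txndc5 was also the only member with the string TGACGTGG, the UPRE that XBP1 binds, which 222 promoters (0.676%) held. The 250 bases before the start are printed for Hspa5 and Herpud1, the 2 genes whose rise in RNA and footprints is described in most detail. Capitals mark the ERSE match in Hspa5 (chr2:34771840-34772089, plus strand). In Herpud1 (chr8:94386179-94386428, plus strand) they mark the ATF4 element core, which reads TGATGCAA on the opposite strand from 112 to 105 bases before the start, and then ERSE-II, from 52 to 42 bases before it. These 2 matches do not overlap.
Hspa5: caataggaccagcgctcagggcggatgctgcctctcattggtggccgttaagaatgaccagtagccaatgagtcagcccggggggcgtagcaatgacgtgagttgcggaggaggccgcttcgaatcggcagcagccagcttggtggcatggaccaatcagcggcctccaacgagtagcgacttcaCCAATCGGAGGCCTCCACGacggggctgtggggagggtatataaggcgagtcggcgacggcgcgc
Herpud1: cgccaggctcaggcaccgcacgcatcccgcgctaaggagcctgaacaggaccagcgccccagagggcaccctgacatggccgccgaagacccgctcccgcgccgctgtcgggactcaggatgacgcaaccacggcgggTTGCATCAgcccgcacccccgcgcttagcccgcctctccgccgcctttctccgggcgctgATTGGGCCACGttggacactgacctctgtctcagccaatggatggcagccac

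The members did not move as a block. In total RNA the sensors and factors Atf6, Xbp1 and Ern1 and the ERAD gene Herpud1 rose with HF, 6 of the 8 disulfide and prolyl isomerases fell, and of the 12 lumenal chaperones 3 rose and 4 fell. HF raised the RNA of 7 of the 38 members (18.4%, beside 22.2% of all 9145 genes tested) and lowered that of 15 (39.5%, beside 21.4% of all genes). The other 16 did not pass the test, which was edgeR's quasi-likelihood test with an adjusted p under 0.05 over all genes tested. The share of members that rose was close to the background, and the share that fell was above it. The difference from the background was not tested, since the list was chosen with results of these data known. The median log2 fold change was -0.29 over the members and -0.02 over all genes. Fold changes compare a gene with most other genes of its library, and in these bulk samples fewer cells of a type and less RNA per cell cannot be told apart.

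In footprints HF raised 8 of the 38 members (21.1%, beside 22.4% of the 8373 protein-coding genes tested) and lowered 14 (36.8%, beside 20.9%). The median over the members was -0.13, against -0.02 over all genes. Calls of both assays coincided in direction for 16 members. Herpud1, Hspa5, Dnajc3, Ern1, Xbp1 and Atf6 were higher in both, and Calr, Hyou1, Dnajb11, P4hb, Pdia3, Pdia4, Pdia6, Txndc5, Ppib and Sec61b were lower in both. A further 10 members passed in neither assay (Canx, Creld2, Derl1, Derl2, Dnajb9, Dnajc1, Dnajc10, Edem1, Erp44 and Sec61g), and no member passed in opposite directions. The matching shares of all genes were not computed, so these joint counts are not shown to be particular to the members. Across the 38 genes the change in footprints and the change in RNA had a Pearson r of 0.71 and a Spearman rho of 0.62, and 27 (71.1%) had the same sign. Over all 7921 genes tested in both assays the values were 0.71, 0.66 and 74.0%. These correlations are descriptions across genes, which share the same libraries.

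Whether footprints changed more or less than RNA is the question of translational efficiency (TE), tested as the interaction term of a single model over the 12 libraries. TE was higher with HF for 4 members (10.5%, beside 6.14% of 7921 genes), Calr, Syvn1, Edem2 and Sec61a1. It was lower for 3 (7.89%, beside 8.23%), Hsp90b1, Pdia3 and Edem3. The other 31 did not pass, which does not show that their RNA and footprints changed alike. Only these 7 genes are shown to differ between the assays. A gene that passed in RNA and not in footprints, such as Manf, is not. The count of members with higher TE was 2 when the total RNA library control 3 or HF 1, or the footprint library control 1 or control 3, was left out.

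**Figure D1:**
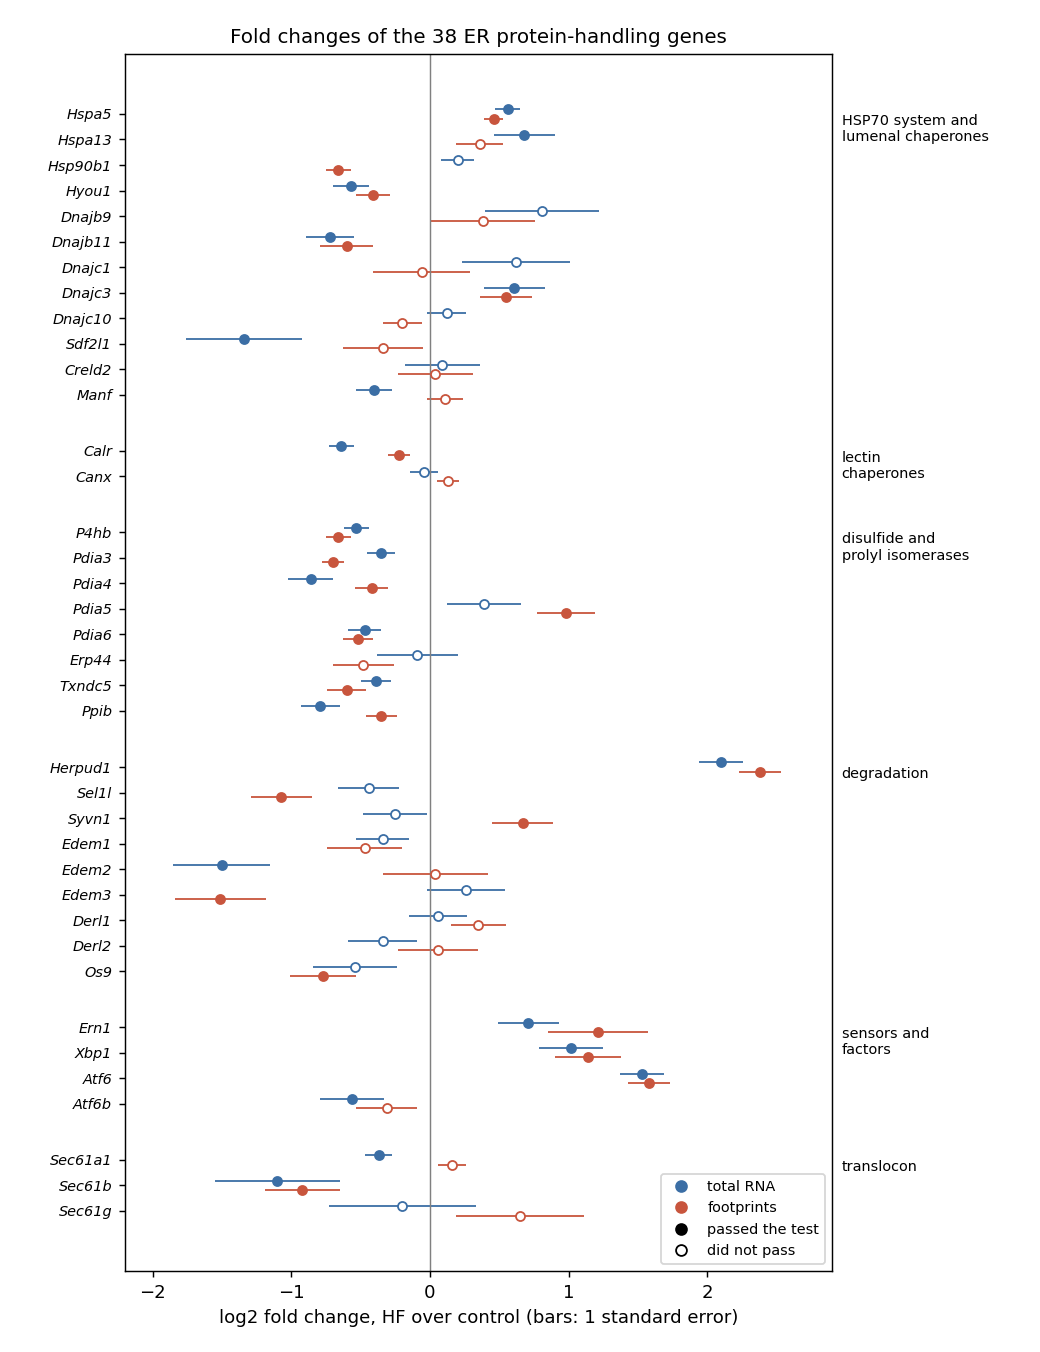
Log2 fold change (HF over control, horizontal axis) of each of the 38 genes in total RNA (blue) and footprints (red), grouped by role, with bars of 1 standard error and filled circles for genes that passed the test. Atf6, Xbp1, Ern1 and Herpud1 lie to the right in both assays, while 6 of the 8 isomerases are filled and left of 0 in both.

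Among the 4 sensors and factors, 3 rose in both assays (75.0% in each, beside 22.2% of all genes in RNA and 22.4% in footprints). The fourth, Atf6b, did not rise in either and fell in RNA (25.0%, beside 21.4%). The median log2 change of the group was 0.86 in RNA and 1.18 in footprints. Atf6 (ENSMUSG00000026663, chr1:170704457-170868585) encodes an ER membrane protein whose cytosolic part is cut free under stress and acts as a transcription factor. Its RNA was 71.7, 77.5 and 75.6 CPM in the control libraries and 201, 245 and 204 CPM in the HF libraries (TMM-scaled). Its footprints were 94.1, 101 and 88.5 CPM in control and 297, 251 and 307 CPM in HF. Every HF library stood above every control library in both assays. The rise was 2.89-fold in RNA (log2 1.53, SE 0.16, edgeR adjusted p = 9.6e-13) and 3.0-fold in footprints (1.58, SE 0.15, 1.6e-10). Atf6 overlaps Gm9929 and 3 other RefSeq genes, and the use of strand in counting is not given in the sources used here.

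Xbp1 (ENSMUSG00000020484, chr11:5520641-5525993) encodes the factor whose mRNA IRE1 splices. Its RNA was 38.6, 53.6 and 37.8 CPM in control and 81.8, 88.4 and 88.3 CPM in HF. Its footprints were 29.2, 39.8 and 32.3 CPM in control and 74.8, 80.3 and 68.2 CPM in HF. The groups did not overlap in either assay. The rise was 2.02-fold in RNA (log2 1.02, SE 0.23, edgeR adjusted p = 0.00018) and 2.21-fold in footprints (1.14, SE 0.24, 0.00023). Gene counts do not show which splice form of Xbp1 was present.

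Ern1 (ENSMUSG00000020715, chr11:106397620-106487796) encodes IRE1 itself, a kinase and endoribonuclease. Its RNA was 49.1, 55.0 and 44.1 CPM in control and 73.0, 79.6 and 87.1 CPM in HF. Its footprints were 17.4, 11 and 15.5 CPM in control and 42.8, 31.8 and 22.7 CPM in HF. Again no HF library fell within the control range. The rise was 1.63-fold in RNA (log2 0.71, SE 0.22, edgeR adjusted p = 0.0075) and 2.31-fold in footprints (1.21, SE 0.36, 0.0075). The footprint call rested on 11 to 76 counts per library and was lost without control 2 or without HF 1 (log2 0.90 to 1.01, adjusted p 0.053 to 0.13).

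Atf6b, a relative of ATF6, went the other way in RNA. Its RNA was 82.1, 59.2 and 67.2 CPM in control and 42.2, 49.1 and 51.2 CPM in HF, without overlap. Its footprints were 84.3, 89.5 and 67.5 CPM in control and 61.9, 45.2 and 94.8 CPM in HF, and these groups overlapped. The RNA fold change was 0.679 (log2 -0.56, SE 0.23, edgeR adjusted p = 0.044), and the footprint change of -0.31 (SE 0.22, 0.27) did not pass. The RNA call was lost when any library other than control 2 was left out (log2 -0.60 to -0.41, adjusted p 0.061 to 0.23), without the filter on low counts (0.11), in DESeq2 (0.091) and with the replicate block (0.054). The remaining sensor of the response, PERK (Eif2ak3), belonged to the wider pathway list and passed in neither assay, with log2 changes of 0.51 (SE 0.35, edgeR adjusted p = 0.24) in RNA and 0.58 (SE 0.46, 0.33) in footprints; it is named for its role, with its values seen.

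TE passed the test for none of the 4 sensors and factors, with log2 changes from 0.06 (Atf6) to 0.53 (Ern1). At an unadjusted p under 0.05 edgeR also called 0 of the 4, and so did DESeq2 and limma-voom. In the control cells Ern1 had the lowest ratio of footprints to RNA of all 38 members, at a log2 of -1.75. The median was 0.33 for the members and 0.09 for all genes. This ratio was not corrected for the lengths of transcript and coding region, which limits its comparison between genes.

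The 9 degradation genes had the widest range of changes. In RNA 1 rose and 1 fell (11.1% each, beside 22.2% and 21.4% of all genes). In footprints 2 rose (22.2%, beside 22.4%) and 3 fell (33.3%, beside 20.9%). Herpud1 rose most of all 38 members in both assays. Herpud1 (ENSMUSG00000031770, chr8:94386429-94395371) encodes an ER membrane protein that assembles the ERAD complex around the ligase HRD1 and is known to respond to ER stress and to ATF4. Its RNA was 58.0, 49.3 and 59.9 CPM in control and 243, 242 and 241 CPM in HF. Its footprints were 70.2, 68.6 and 57.6 CPM in control and 368, 348 and 326 CPM in HF. The lowest HF library lay several times above the highest control library in each assay. The rise was 4.29-fold in RNA (log2 2.10, SE 0.16, edgeR adjusted p = 5.2e-18) and 5.22-fold in footprints (2.38, SE 0.15, 9e-15). This gene carried both ERSE-II and the ATF4 element core in the promoter printed above, and it overlaps no other gene in the RefSeq annotation.

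The 2 partners in the HRD1 complex moved in opposite directions in footprints, and neither passed in RNA. Sel1l encodes the adaptor of the ligase and Syvn1 encodes HRD1, the ligase itself. Sel1l footprints fell from 83.1, 90.1 and 108 CPM in control to 46.1, 48.5 and 34.1 CPM in HF, without overlap (0.476-fold, log2 -1.07, SE 0.22, edgeR adjusted p = 0.00018). Its RNA, at 82.1, 64.8 and 77.7 CPM in control and 45.7, 51.1 and 68.3 CPM in HF, overlapped between the groups and did not pass (-0.44, SE 0.22, 0.11). Syvn1 footprints rose from 45.0, 52.7 and 46.4 CPM to 81.6, 65.2 and 79.6 CPM (1.59-fold, log2 0.67, SE 0.22, edgeR adjusted p = 0.014). Syvn1 RNA was 60.4, 56.4 and 91.4 CPM in control and 52.8, 62.9 and 60.0 CPM in HF, which overlapped (-0.25, SE 0.23, 0.39).

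For Syvn1 the interaction passed, with TE higher by 1.89-fold in HF (log2 0.92, SE 0.32, edgeR adjusted p = 0.043). For Sel1l it did not (-0.63, SE 0.32, 0.20). The footprint call of Syvn1 was lost without control 1 or without HF 1 (log2 0.58 to 0.59, adjusted p 0.079 to 0.085). Its TE call was lost in 8 of 12 settings that left out a library: total RNA control 3, HF 1, HF 2 or HF 3, or footprint control 1, control 3, HF 1 or HF 3 (log2 0.67 to 0.97, adjusted p 0.053 to 0.20). It was also lost with upper-quartile scaling (0.88, adjusted p 0.054), without the filter on low counts (0.88, 0.078) and with the replicate block (0.91, 0.061). Syvn1 overlaps the protein-coding gene Mrpl49.

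The EDEM proteins trim mannose from the glycans of misfolded proteins and so mark them for ERAD. Edem2 and Edem3 changed in different assays and in opposite directions of TE. Edem2 RNA (ENSMUSG00000038312, chr2:155701673-155729475) fell from 37.0, 56.4 and 41.0 CPM in control to 8.80, 21.6 and 16.5 CPM in HF. Its footprints were 24.7, 20.8 and 26.7 CPM in control and 13.5, 33.5 and 34.1 CPM in HF. The RNA groups did not overlap (0.354-fold, log2 -1.50, SE 0.35, edgeR adjusted p = 0.00034), whereas HF libraries lay on both sides of the control range in footprints (0.04, SE 0.38, 0.94). TE was 2.91-fold higher in HF (log2 1.54, SE 0.53, edgeR adjusted p = 0.042). HF libraries held 10 to 28 counts of Edem2 in RNA and 18 to 24 in footprints. The TE call was lost in limma-voom (log2 1.21, adjusted p 0.097) and in 9 of 12 settings that left out a library: total RNA control 2, control 3, HF 1 or HF 3, any footprint control, or footprint HF 2 or HF 3 (log2 1.25 to 1.60, adjusted p 0.052 to 0.14).

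Edem3 (ENSMUSG00000043019, chr1:151755344-151822328) had the reverse pattern. Its RNA was 45.1, 28.2 and 33.6 CPM in control and 38.7, 51.1 and 41.8 CPM in HF, with overlap (log2 0.26, SE 0.28, edgeR adjusted p = 0.47). Its footprints were 55.6, 39.8 and 50.6 CPM in control and 14.6, 26.8 and 11.4 CPM in HF, with every HF library below every control library (0.35-fold, log2 -1.51, SE 0.33, edgeR adjusted p = 0.00031). TE fell by 1.77 on the log2 scale (SE 0.43, edgeR adjusted p = 0.003), to 0.293 of its control value. The HF footprint libraries held 6 to 26 counts. The call held in every alternative run. Edem1, the third gene of this family, changed by -0.34 in RNA (SE 0.19, 0.15) and by -0.47 in footprints (SE 0.27, edgeR adjusted p = 0.16) and passed neither test.

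Os9, a lectin that delivers trimmed glycoproteins to the HRD1 complex, had footprints of 75.4, 74.2 and 59.0 CPM in control and 40.5, 51.9 and 32.2 CPM in HF. The groups did not overlap (0.588-fold, log2 -0.77, SE 0.24, edgeR adjusted p = 0.0092), while the RNA change of -0.54 (SE 0.30, 0.14) did not pass. The derlins Derl1 and Derl2, membrane proteins of the exit channel, passed no test, with log2 changes from -0.34 to 0.35. The median of the degradation group was -0.34 in RNA and 0.04 in footprints. The footprint median turned to -0.33 without the footprint library HF 1 and to -0.30 in limma-voom.

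**Figure D2:**
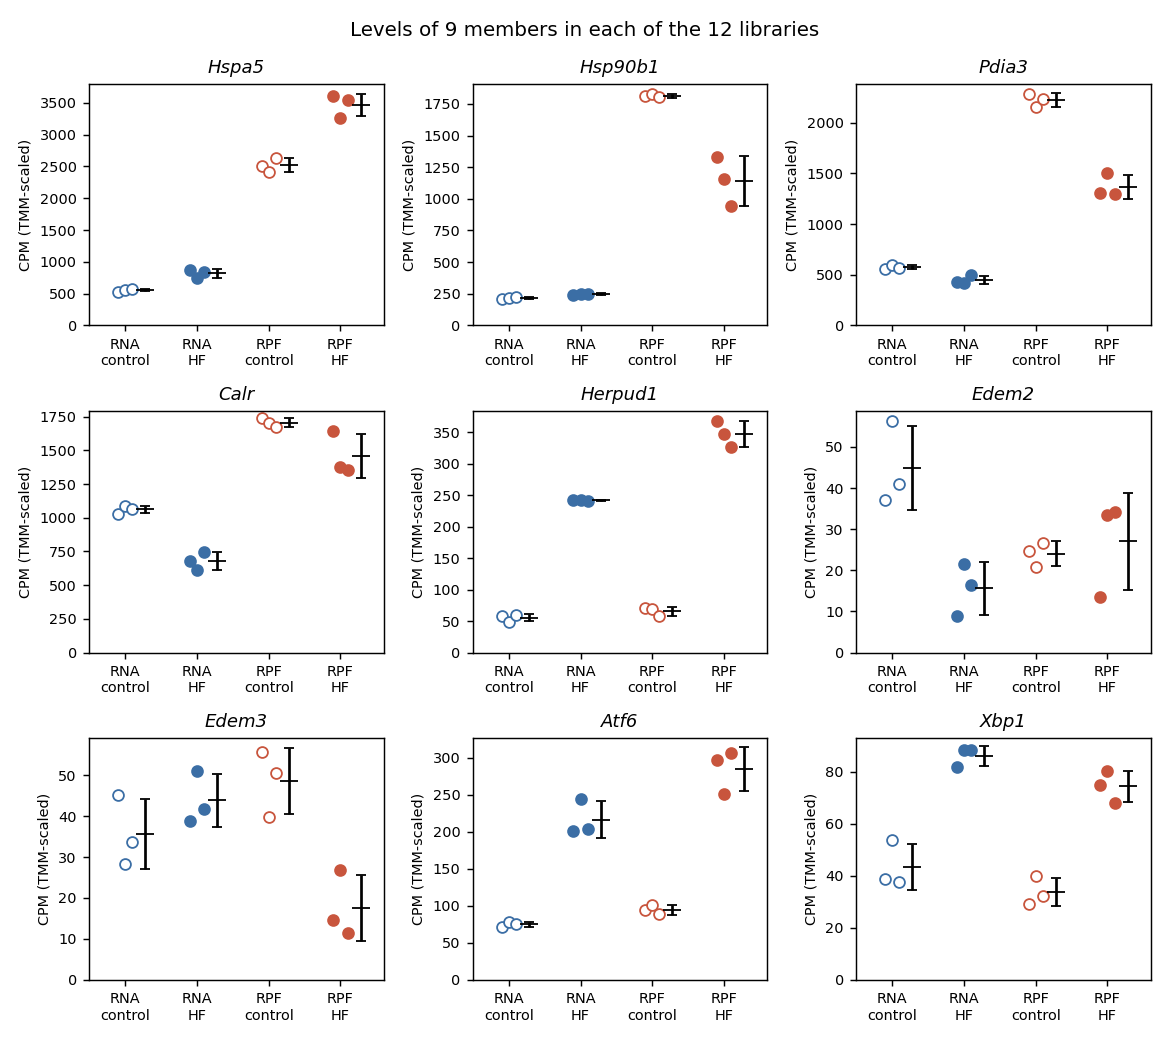
TMM-scaled CPM (vertical axis, from 0) of 9 genes in each of the 12 libraries, open circles for control and filled circles for HF, with the mean and 1 SD (n = 3) beside each group. Herpud1, Atf6 and Xbp1 rise in both assays, Edem2 falls in total RNA alone by the test, and Hsp90b1 and Edem3 fall in footprints alone by the test.

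Of the 22 folding genes, 3 rose (13.6%, beside 22.2%) and 11 fell (50.0%, beside 21.4%) in RNA, and 3 rose (13.6%, beside 22.4%) and 10 fell (45.5%, beside 20.9%) in footprints. Isomerases made up 6 of the 11 falls in RNA and 6 of the 10 in footprints. In the HSP70 system and the other lumenal chaperones, 3 of 12 rose (25.0%, beside 22.2% of all genes) and 4 fell (33.3%, beside 21.4%) in RNA. In footprints 2 rose (16.7%, beside 22.4%) and 3 fell (25.0%, beside 20.9%). Hspa5 (ENSMUSG00000026864, chr2:34772090-34776529), the gene of the ER HSP70 chaperone BiP, rose in both assays. Its RNA was 532, 565 and 575 CPM in control and 871, 739.8 and 846 CPM in HF. Its footprints were 2504, 2419 and 2636 CPM in control and 3600.1, 3264 and 3538 CPM in HF. The groups did not overlap, and the rise was 1.47-fold in RNA (log2 0.56, SE 0.09, edgeR adjusted p = 1.4e-06) and 1.38-fold in footprints (0.46, SE 0.07, 1.5e-06). TE did not pass (-0.09, SE 0.10, edgeR adjusted p = 0.65). Hspa5 overlaps the protein-coding gene Rabepk.

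Hsp90b1 (ENSMUSG00000020048, chr10:86690841-86705444) encodes GRP94, the HSP90 of the ER, and shares ERSE matches with Hspa5. Its RNA was 208, 214 and 221 CPM in control and 238, 252 and 247 CPM in HF. Its footprints were 1811, 1829 and 1802 CPM in control and 1329, 1153 and 940.3 CPM in HF. The RNA of all 3 HF libraries stood slightly above control and did not pass the test (log2 0.20, SE 0.12, edgeR adjusted p = 0.19), while every HF footprint library stood well below control (0.633-fold, -0.66, SE 0.09, 5.7e-07). TE fell by 0.85 on the log2 scale (SE 0.14, edgeR adjusted p = 9e-06), to 0.554 of its control value, and this call held in every alternative run. In control cells Hsp90b1 had the highest ratio of footprints to RNA among the 38 genes, at a log2 of 3.08, followed by Hspa5 at 2.18. The folding genes had a median of 0.59, the degradation genes -0.26.

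Hspa13, an HSP70 relative in the ER, and Dnajc3, a BiP co-chaperone also known as an inhibitor of PERK, rose in RNA. Hspa13 RNA was 47.5, 47.9 and 63.0 CPM in control and 87.1, 83.5 and 83.6 CPM in HF (1.6-fold, log2 0.68, SE 0.22, edgeR adjusted p = 0.0082). Its footprints overlapped between the groups, with HF 3 at 123 CPM below every control library, and did not pass (0.36, SE 0.17, 0.087). Dnajc3 RNA was 62.8, 46.5 and 53.6 CPM in control and 78.3, 97.3 and 78.3 CPM in HF (1.53-fold, log2 0.61, SE 0.22, edgeR adjusted p = 0.017). Its footprints were 72.6, 64.3 and 60.4 CPM in control and 92.8, 93.7 and 110 CPM in HF (1.47-fold, log2 0.55, SE 0.19, edgeR adjusted p = 0.021). Neither assay of Dnajc3 showed overlap. The RNA call of Hspa13 was lost without control 1 (log2 0.59, adjusted p 0.051), and that of Dnajc3 without control 2 or HF 2 (0.52 to 0.53, 0.060 to 0.082). The footprint call of Dnajc3 was lost without control 2, control 3 or HF 3 (0.48 to 0.52, 0.062 to 0.078) and with upper-quartile scaling (0.47, 0.050).

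Other lumenal chaperones fell, Hyou1 and Dnajb11 in both assays and Sdf2l1 and Manf in RNA alone by the test. Hyou1, a nucleotide exchange factor of BiP, fell by 0.57 on the log2 scale in RNA (SE 0.13, edgeR adjusted p = 0.00036) and by 0.41 in footprints (SE 0.12, 0.0069). Dnajb11, the co-chaperone ERdj3, fell by 0.72 in RNA (SE 0.17, edgeR adjusted p = 0.00043) and by 0.60 in footprints (SE 0.19, 0.0095). The footprint call of Dnajb11 was lost without HF 3 (-0.42, 0.056). Sdf2l1, which binds ERdj3, had RNA at 49.9, 28.2 and 16.8 CPM in control and 11.4, 6.88 and 18.2 CPM in HF. It passed the RNA test (0.395-fold, log2 -1.34, SE 0.42, edgeR adjusted p = 0.0065) although HF 3 lay within the control range. Without control 1 or without HF 2 it did not pass (-1.07 to -0.81, 0.052 to 0.24). Its footprint groups overlapped, and their change did not pass (-0.34, SE 0.29, edgeR adjusted p = 0.37). Manf, a secreted ER stress protein, fell in RNA by 0.40 (SE 0.13, edgeR adjusted p = 0.011), a call lost without control 3 or HF 3 (-0.35 to -0.34, 0.068 to 0.072). Manf footprints overlapped between the groups and did not pass (0.11, SE 0.13, edgeR adjusted p = 0.52). The TE change of Manf, 0.51 (SE 0.18), had an edgeR adjusted p of 0.051.

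The co-chaperones Dnajb9, Dnajc1 and Dnajc10 and the chaperone Creld2 passed no test. Their log2 changes ran from 0.09 to 0.81 in RNA and from -0.20 to 0.38 in footprints. Dnajb9 had 11 to 43 counts per library over both assays, and its RNA change of 0.81 carried an SE of 0.41 (edgeR adjusted p = 0.10). Dnajc1 had only 6 counts in total RNA control 2 and 6 in footprint HF 3.

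The lectin chaperones calreticulin (Calr) and calnexin (Canx) hold newly made glycoproteins while they fold. Calr RNA was 1031, 1085 and 1068 CPM in control and 681, 615 and 747 CPM in HF. Its footprints were 1736, 1706 and 1672 CPM in control and 1645, 1378 and 1352 CPM in HF. HF libraries were below control in both, by 35.6% in RNA (0.644-fold, log2 -0.64, SE 0.09, edgeR adjusted p = 2.2e-08) and by 14.1% in footprints (0.859-fold, -0.22, SE 0.08, 0.030). The smaller fall in footprints passed as a TE difference of 1.34-fold (log2 0.42, SE 0.11, edgeR adjusted p = 0.0076), a call kept in every alternative run. The footprint call itself was lost without control 1, control 2, HF 2 or HF 3 (-0.23 to -0.17, 0.058 to 0.11). Canx passed no test, with log2 changes of -0.04 in RNA (SE 0.10, edgeR adjusted p = 0.79) and 0.13 in footprints (SE 0.08, 0.19).

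The disulfide and prolyl isomerases fell in the largest number. Of 8 genes, 6 fell in RNA (75.0%, beside 21.4% of all genes). The same 6 fell in footprints (75.0%, beside 20.9%): P4hb, Pdia3, Pdia4, Pdia6, Txndc5 and Ppib. The first 5 are enzymes that form and rearrange disulfide bonds, and Ppib encodes cyclophilin B, a prolyl isomerase that also acts in collagen folding. Pdia3, the partner of calnexin and calreticulin, had RNA at 559.6, 598 and 564 CPM in control and 428, 419 and 498 CPM in HF. Its footprints were 2286, 2155 and 2233 CPM in control and 1304, 1507 and 1297 CPM in HF. The groups did not overlap, and the fold change was 0.785 in RNA (log2 -0.35, SE 0.10, edgeR adjusted p = 0.003) and 0.615 in footprints (-0.70, SE 0.08, 8.1e-09). TE was lower by 21.3% (log2 -0.35, SE 0.12, edgeR adjusted p = 0.037). That TE call was lost in 8 of 12 settings that left out a library: total RNA control 1, control 3 or HF 3, any footprint control, or footprint HF 1 or HF 3 (log2 -0.37 to -0.27, adjusted p 0.050 to 0.15). Pdia3 overlaps the protein-coding gene Catsper2.

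P4hb, the founding disulfide isomerase and a subunit of collagen prolyl 4-hydroxylase, fell in both assays. Its RNA was 1009, 1023 and 1014 CPM in control and 683, 778 and 649 CPM in HF (0.691-fold, log2 -0.53, SE 0.09, edgeR adjusted p = 1.4e-06). Its footprints were 1663, 1591 and 1530.4 CPM in control and 1116, 1002 and 893 CPM in HF (0.632-fold, log2 -0.66, SE 0.09, edgeR adjusted p = 1.9e-07). No HF library reached the control range, and TE did not pass (-0.12, SE 0.12, edgeR adjusted p = 0.56).

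Pdia4 RNA was 163, 186 and 188 CPM in control and 107, 89.4 and 98.3 CPM in HF (0.552-fold, log2 -0.86, SE 0.16, edgeR adjusted p = 5.3e-06), and its footprints fell by 0.42 (SE 0.12, 0.005). Ppib RNA was 247, 269 and 233 CPM in control and 126, 135 and 168 CPM in HF (0.579-fold, log2 -0.79, SE 0.14, edgeR adjusted p = 2e-06), and its footprints fell by 0.35 (SE 0.11, 0.014). The groups of both genes were apart in both assays. The footprint call of Ppib was lost without control 1 or HF 1 (-0.35 to -0.28, 0.051 to 0.058). Pdia6 and Txndc5 fell by 0.47 and 0.39 in RNA and by 0.52 and 0.60 in footprints, each with an edgeR adjusted p of 0.0026 or less.

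Pdia5 was the exception among the isomerases, the only 1 of 8 that rose in footprints (12.5%, beside 22.4%). Its footprints were 65.3, 42.9 and 43.6 CPM in control and 100.2, 102 and 108 CPM in HF, a 1.97-fold rise (log2 0.98, SE 0.21, edgeR adjusted p = 0.00031) without overlap. Its RNA was 37.8, 32.4 and 39.9 CPM in control and 53.7, 51.1 and 41.8 CPM in HF, also without overlap, and did not pass (0.39, SE 0.27, 0.24). TE did not pass either (0.60, SE 0.33, 0.25), so a difference between the assays is not shown. Erp44, which retains other proteins in the early secretory pathway, changed by -0.09 in RNA (SE 0.29, edgeR adjusted p = 0.82) and by -0.48 in footprints (SE 0.22, 0.077).

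Summed over a role, the levels show how much of each library these genes took, with the most abundant genes weighing most. The 8 isomerases together went from 2702, 2816 and 2710.3 CPM in control RNA to 1909, 1993 and 1979 CPM in HF RNA, a ratio of means of 0.715. In footprints they went from 5917, 5574 and 5631 CPM to 3878, 4008 and 3517 CPM, a ratio of 0.666. The 12 lumenal chaperones, led by Hspa5, summed to 1738, 1822 and 1806 CPM in control RNA and 1997, 1942 and 1976 CPM in HF RNA, a ratio of 1.10. Their footprints had a ratio of 1.03, with overlapping groups. Without Hspa5 the other 11 had ratios of 0.936 in RNA and 0.756 in footprints. Their mean footprint sum went from 3144 CPM in control to 2378 CPM in HF, and most of this fall was that of Hsp90b1, from 1814 to 1140.5 CPM. The median log2 footprint change of the 12 lumenal chaperones was -0.01. Sensors and factors had the highest ratios of the 6 roles, 1.81 in RNA and 2.06 in footprints, and no HF library within the control range. Without Atf6 the other 3 had ratios of 1.32 and 1.35. The ratio for the degradation genes was 1.16 in RNA and 1.41 in footprints, and both values were above 1 through Herpud1. Without Herpud1 the other 8 together stood below control, going from 513 ± 26.6 to 418 ± 43.2 CPM in RNA (ratio 0.815) and from 433 ± 8.23 to 356 ± 27.7 CPM in footprints (ratio 0.823; mean ± SD, n = 3). All 38 genes together stood at 7580.4 ± 143 CPM in control and 6728 ± 160.5 CPM in HF RNA, and at 15878 ± 256 and 14512 ± 787 CPM in footprints (mean ± SD, n = 3). The differences between roles were not tested, since genes are not replicates of a condition.

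**Figure D3:**
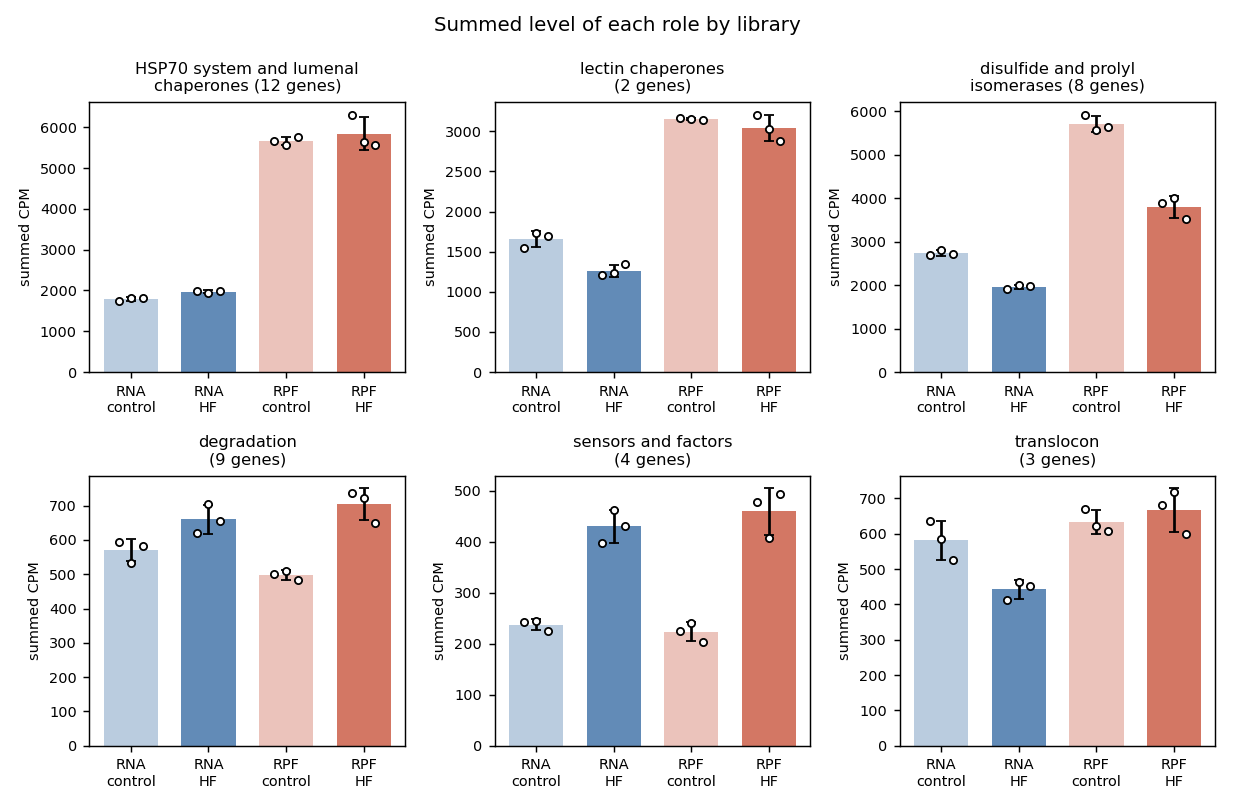
Summed CPM (vertical axis, from 0) of the genes of each role, with bars for the mean, error bars for 1 SD and circles for the 3 libraries of each group. The isomerases drop to 0.715 of control in RNA and 0.666 in footprints, while the sensors and factors stand at 1.81 and 2.06 times control.

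The 3 translocon genes encode the Sec61 channel. Sec61a1 (ENSMUSG00000030082), the pore subunit, had RNA at 606, 526 and 492 CPM in control and 385, 438 and 434 CPM in HF. Its footprints were 601, 542 and 502 CPM in control and 609, 671 and 569 CPM in HF. The RNA groups did not overlap (0.773-fold, log2 -0.37, SE 0.10, edgeR adjusted p = 0.0021), and the footprint groups did (0.16, SE 0.10, 0.21). TE was 1.45-fold higher (log2 0.54, SE 0.14, edgeR adjusted p = 0.0065), a call kept in every alternative run.

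Sec61b, a small subunit, fell in both assays. Its RNA was 17.7, 42.3 and 20 CPM in control and 10.6, 13.8 and 11.8 CPM in HF (0.466-fold, log2 -1.10, SE 0.45, edgeR adjusted p = 0.041). Its footprints were 58.0, 66.2 and 95.6 CPM in control and 50.1, 28.4 and 22.7 CPM in HF (0.53-fold, log2 -0.92, SE 0.27, edgeR adjusted p = 0.0061). The groups did not overlap, but the RNA rested on 12 to 30 counts per library and the control library 2 held the highest level. The RNA call was lost without control 2 or any HF library (-1.18 to -0.64, adjusted p 0.063 to 0.34), without the filter on low counts (-1.05, 0.076), in DESeq2 (-1.11, 0.058), in limma-voom (-0.92, 0.071) and with the replicate block (-1.05, 0.063). The footprint fall was -1.45 (adjusted p 0.001) without HF 1. Sec61g passed no test. The median of the 3 genes was 0.16 in footprints and turned to -0.64 without the footprint library HF 1 and to -0.31 with halved counts.

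**Figure D4:**
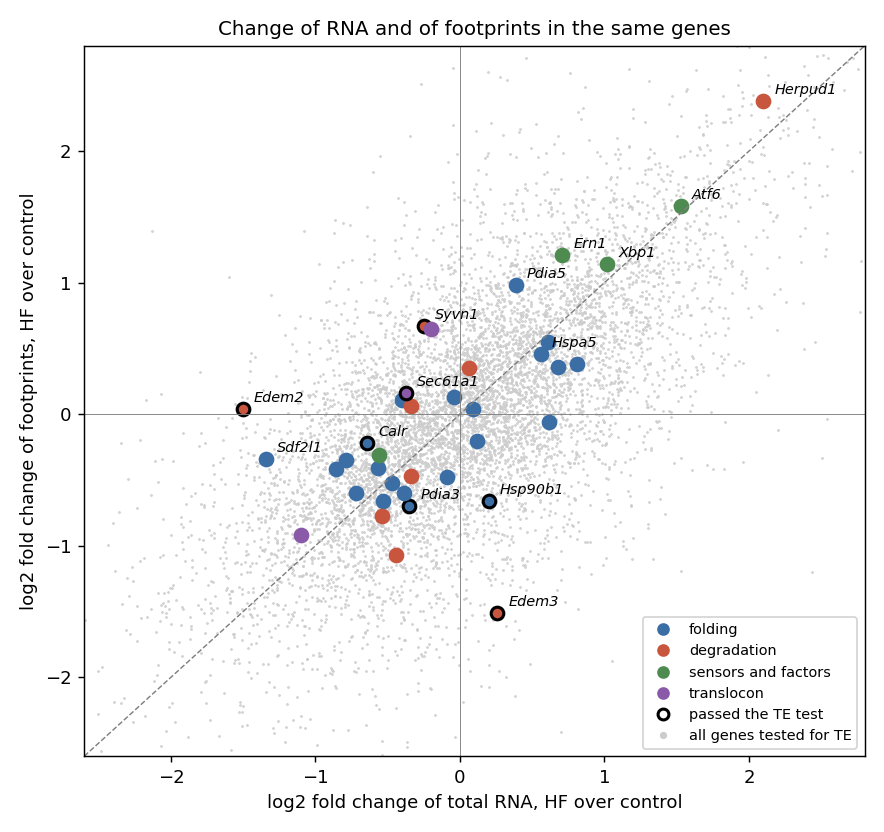
Log2 fold change (HF over control) of total RNA (horizontal) against footprints (vertical) for the 38 genes, coloured by role, with genes that passed the TE test ringed in black and all 7921 genes tested for TE in grey (136 of these lie beyond the axes). The dashed line marks equal change: Herpud1, Atf6 and Xbp1 lie near it, Edem2 far above it and Edem3 and Hsp90b1 below it.

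The 8 members with an ERSE match did not move in a single direction. In RNA Hspa5 and Dnajc3 rose, Calr and Pdia6 fell and the other 4 did not pass. These 2 of 8 each way were near the 22.2% and 21.4% of all genes. In footprints Hspa5, Dnajc3 and Syvn1 rose and Hsp90b1, Calr and Pdia6 fell, 3 of 8 each way, beside 22.4% and 20.9%. The median log2 change of the 8 was 0.03 in RNA and 0.08 in footprints. Of other genes with an ERSE match, 4 were tested in RNA (1 rose, 1 fell) and 3 in footprints (1 rose, 0 fell). Herpud1 rose and Txndc5 fell in both assays, and these were the 2 members with the ATF4 element core. Of other genes with this core, 175 were tested in RNA, where 63 rose and 23 fell, with a median log2 change of 0.20. In footprints 171 were tested, where 55 rose and 33 fell, with a median of 0.14. The 2 members are too few to give a direction for genes with the core, and the difference from all genes was not tested.

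Beyond the members, 90 further genes of ER protein handling were taken as a wider pathway list. In RNA 82 were tested, of which 10 rose (12.2%, beside 22.2% of all genes) and 19 fell (23.2%, beside 21.4%), with a median of -0.08. In footprints 81 were tested, of which 14 rose (17.3%, beside 22.4%) and 18 fell (22.2%, beside 20.9%), with a median of -0.14. In both assays the share that fell was near the background. Serpinh1, the collagen chaperone HSP47, fell by 1.43 on the log2 scale in RNA (SE 0.12, edgeR adjusted p = 9.5e-17) and by 1.60 in footprints (SE 0.11, 7.2e-14). Of the 20 further folding enzymes tested in RNA, 0 rose (0.0%, beside 22.2%) and 6 fell (30.0%, beside 21.4%) by edgeR. Txndc12 (-0.94) was among those that fell. The count that rose was 1 at an unadjusted p under 0.05, and 0 in DESeq2 and limma-voom. In footprints 1 of 21 rose (4.76%, beside 22.4%), Tmx1 at 0.60. A further 6 fell (28.6%, beside 20.9%), with Fkbp7 at -1.66.

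Among 21 further degradation factors, 5 rose (23.8%) and 4 fell (19.0%) in RNA, shares near the background of 22.2% and 21.4%. In footprints 6 rose (28.6%, beside 22.4%) and 2 fell (9.52%, beside 20.9%). Vcp, the ATPase that pulls ERAD substrates into the cytosol, fell by 1.40 in RNA (SE 0.26, edgeR adjusted p = 8.4e-06) and by 1.59 in footprints (SE 0.18, 1e-08). Ubxn4, an ER protein that binds VCP, rose by 1.13 in RNA (SE 0.20, edgeR adjusted p = 2.6e-06) and by 1.25 in footprints (SE 0.17, 3.7e-07). The ubiquitin-conjugating enzymes Ube2g2 and Ube2j2 went opposite ways in RNA, at 0.86 and -0.94. In footprints the ubiquilin Ubqln2 fell by 0.97, and Selk (selenoprotein K) rose by 1.62.

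Among 12 further sensors and stress factors, 2 rose and 2 fell in RNA (16.7% each, beside 22.2% and 21.4% of all genes). In footprints 3 rose and 3 fell (25.0% each, beside 22.4% and 20.9%). Mbtps1, which encodes the site-1 protease that cuts ATF6, fell by 1.46 in RNA (SE 0.14, edgeR adjusted p = 3.2e-14) and by 1.48 in footprints (SE 0.25, 1.1e-05). Creb3, a membrane-bound factor processed in the same way as ATF6, rose by 1.17 in RNA (SE 0.28, edgeR adjusted p = 0.00037) and by 0.84 in footprints (SE 0.18, 0.00031). Dnajb2 rose by 0.95 in RNA and by 1.99 in footprints. Tmbim6 fell by 0.73 in RNA, and Bag3 fell by 0.86 in footprints.

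Of the genes for targeting, translocation and glycan transfer, 3 of 29 rose (10.3%, beside 22.2% of all genes) and 7 fell (24.1%) in RNA. In footprints 4 of 27 rose (14.8%, beside 22.4%) and 7 fell (25.9%). The shares that fell were close to the 21.4% and 20.9% of all genes. Those that rose were below the background, a difference that was not tested. Sec61a2, a second gene for the pore subunit, rose by 1.02 in RNA (SE 0.24, edgeR adjusted p = 0.00038) and by 1.14 in footprints (SE 0.21, 3.9e-05), where Sec61a1 did not rise in either assay. Sec62 RNA rose by 1.16, and that of the oligosaccharyltransferase subunits Ostc and Dad1 fell by 0.84 and 0.78. Footprints of the transferase subunits Stt3b and Rpn1 fell by 1.50 and 0.97, and those of the signal recognition particle receptor gene Srpr rose by 0.85. TE was higher for 4 of 80 pathway genes (5.0%, beside 6.14% of all genes) and lower for 5 (6.25%, beside 8.23%). Those named by the rule were Selk (1.56), Srp19 (1.39), Ssr2 (0.61) and Nploc4 (0.58) on the higher side and Stt3b (-1.21) and Sec62 (-1.04) on the lower side. The count of 4 was 1 without total RNA control 3, HF 1 or HF 3, or without footprint control 1 or HF 2, and 2 without the filter on low counts.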

How the data were processed

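Total RNA and footprints of MEF were sequenced in 4 groups of 3 libraries. Per the labels' protocols, total RNA was fragmented by alkaline hydrolysis, and footprints were made with RNase I and taken from the monosome fraction. The authors deposited whole-number read counts per Ensembl gene for each library, with no normalization. Bowtie, HISAT2, HTSeq and GRCm38 are named, without versions, per the submitters' processing notes. No source used here gives the counted feature, the use of strand or the handling of reads with several matches, so genes that overlap another (15 of the 38, 9 of them a protein-coding gene) and footprints outside coding regions cannot be told apart from the gene's own. Low counts were mostly even: in the first total RNA control library 1541 genes had 2 counts and 419 had 1.

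Tests used edgeR 4.0.16 in R 4.3.3 (quasi-likelihood, TMM factors, filterByExpr with a minimum count of 10, Benjamini-Hochberg adjustment, threshold 0.05). The RNA fit took all genes and the footprint fit the protein-coding ones (21409 IDs by the RefSeq table), each on its 6 libraries, and TE as the interaction over the 12 libraries. The scripts were tested on simulated counts. The SE is the absolute log2 fold change divided by the square root of F, and CPM were scaled by TMM factors from the deposited counts. Alternatives were other scaling, no filter, DESeq2 1.42.0, limma-voom (limma 3.58.1), a replicate block, halved counts, other gene sets and leaving out each library. No pairing of libraries by replicate number was seen, and the main fits used none.

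The members, roles, motifs and pathway list were chosen with earlier results of these data known. Values in every library are given for members past the test with the 3 largest rises and falls per role, for Hspa5, Hsp90b1, Herpud1, Xbp1, Atf6, Ern1 and Sec61a1, and for members past the TE test; in each pathway list the 2 largest called changes per direction are named. Planned protein features were not computed. Gene lengths were not used, so CPM levels of a gene are compared between libraries. The control ratio of footprints to RNA was ranked across genes without correction for length. Promoter sequences and coordinates (counted from 1) are from RefSeq, GRCm38.p6.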

Additional observations from a re-analysis of the deposited data

How the results depend on the processing

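Of the 22 members called in RNA, 16 kept their call under all 14 alternatives run, as did 16 of 22 in footprints under 14 and 4 of 7 in TE under 19 (Calr, Edem3, Hsp90b1, Sec61a1). The calls that ended are given beside each gene in the report. Leaving out 1 library gave 6 to 7 members higher and 12 to 14 lower in RNA, 6 to 8 and 12 to 14 in footprints, and 2 to 4 and 2 to 3 in TE. No pairing of libraries by replicate number was seen (correlation of same-numbered deviations -0.031 to 0.017). Counting noise in genes with few reads could hide a pairing, so its absence is not shown. The replicate block gave 7 higher and 13 lower in RNA, 8 and 14 in footprints and 3 and 3 in TE.

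Without each library in turn, the RNA median ran from -0.25 to -0.14 for folding and from -0.37 to -0.15 for degradation genes. The footprint median ran from -0.41 to -0.21 for folding, -0.33 to -0.03 for degradation, 1.02 to 1.28 for sensors and factors, -0.64 to 0.21 for translocon and -0.16 to -0.08 for pathway genes. For degradation it was negative whichever library was left out, against 0.04 with all. In TE the translocon median ran from 0.10 to 0.62, the pathway median from -0.09 to 0.00, and the count of pathway genes with higher TE from 1 to 4. Among other settings, the pathway median in RNA was -0.14 with upper-quartile scaling. In footprints it was -0.22 with that scaling, -0.16 without the filter on low counts, -0.16 in limma-voom and -0.21 with halved counts. Upper-quartile scaling moved the median of all genes in footprints from -0.02 to -0.104. The footprint median was -0.30 for degradation in limma-voom and -0.31 for translocon with halved counts, and 2 pathway genes had higher TE without the filter. The TE change of Xbp1, which passed in no setting, ran from -0.02 (without total RNA control 2) to 0.29, and that of Atf6 from -0.01 (without total RNA HF 1) and 0.00 (without HF 3) to 0.15. The cause was not tested. Depth limits, among others, Edem2, Edem3, Sec61b, Sec61g, Sdf2l1, Dnajb9, Dnajc1, Derl2 and Ern1, whose lowest libraries held few counts.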
